A study of Mus musculus with 4 samples.

Results

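Cluster 7 of the CD8 T cells is 1 of 8 clusters that the authors deposited for CD8 T cells of bone marrow, and it is described here by its open chromatin. Its members are the cells that the deposited per-cell table assigns both to the CD8 set and to cluster 7. They number 192 of the 3587 cells of the series, 191 in the library of transplanted mice without further treatment (alloBMT) and 1 in the library of mice that also received cyclophosphamide (PT-Cy). The mice were C57Bl/6 recipients of 5000000 marrow cells, 500000 CD4 and 500000 CD8 T cells from C3HSW donors. The alkylating agent cyclophosphamide was given to the PT-Cy mice at 50 mg/kg on day 3 and again on day 4. T cells were sorted on day 14 from a pool of 4 mice per group, so mice cannot be told apart, and each nucleus gave both its RNA and its accessible chromatin (ATAC) on the 10x Multiome platform. The 191 cells were set against the 1674 other CD8 cells of the alloBMT library, which fall into clusters 0 to 6. RNA counts per gene of the CD8 cells were not analysed here, so gene names below stand for places in the genome and not for transcripts.

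CD8 T cells that meet their antigen divide and become killer cells with cytotoxic granules, while a smaller share keeps features of naive and memory cells. Naive and memory-like cells are known for the transcription factors TCF-1 (gene Tcf7) and BACH2 and for the receptor S1PR1, by which cells leave tissues. Long exposure to antigen, as after an allogeneic transplant, leads to exhaustion, with inhibitory receptors such as PD-1 (Pdcd1) and the factor TOX. A state leaves its trace in which enhancers and promoters are open, and ATAC counts measure that opening.

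There is 1 library per group, and the authors formed the clusters from the RNA and chromatin of these same cells. Cells of 1 library are not replicates, and a cluster set against the rest is a description, so p-values are not given. Levels are CPM, counts summed over the cells of a cluster and scaled to a common total of counts in peaks. Ratios are log2 ratios of CPM in cluster 7 over CPM in the other CD8 cells, with the exact 95% interval in brackets, which covers counting error only and leaves out the spread between cells. A peak was called at 2-fold where it had at least 200 counts over both sets of cells.

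Cluster 7 made up 10.2% of the 1865 alloBMT CD8 cells (exact interval 8.90 to 11.7) and 0.195% of the 512 PT-Cy CD8 cells (0.00494 to 1.08). Since nearly all its cells come from 1 library, a type of cell and an effect of that library cannot be told apart. Other clusters were also rare in PT-Cy: clusters 2, 5 and 6 held 170, 189 and 121 of its 512 CD8 cells, and every other cluster held fewer than 50. The 2 libraries share 2 barcodes, 0 of them in cluster 7. Its 191 cells held 1595199 counts in peaks, against 15010731 in the other CD8 cells. The median cell of cluster 7 had 7257 counts in peaks, against 7920 in the other CD8 cells, and 67.3% of its fragments lay in peaks, against 65.2%. TSS enrichment, the pile-up of reads at start sites, had a median of 5.45 in cluster 7 and 5.37 in the other CD8 cells. The same cells had fewer RNA molecules, with a median of 2618 UMIs per cell in cluster 7 against 3242, and a lower mitochondrial share, 3.71% against 4.86%. Its median of RNA counts lay below that of every other CD8 cluster, the next being cluster 4 at 2820.

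Chromatin at T cell genes was open to about the same degree in cluster 7 as in the other CD8 cells. Of 14 identity genes such as Cd3e, Cd8a and Lck, 13 were in the gene table and had enough counts, 0 differed by 1.5-fold, and their summed level was 1783 CPM in cluster 7 against 1686 CPM in the other CD8 cells and 1475 to 1769 CPM over clusters 0 to 6. Cd8a, the alpha chain of the CD8 co-receptor, had 28.8 CPM against 33.8 CPM (log2 ratio -0.23 [-0.70 to 0.21]), and Cd8b1, the beta chain, had 77.7 CPM against 55.9 CPM (0.48 [0.19 to 0.75]). Cd4 had 38.2 CPM against 45.4 CPM (-0.25 [-0.65 to 0.13]). At genes of other blood cells, 12 B cell genes gave 308 CPM in cluster 7 against 325 CPM, and 16 myeloid genes gave 325 CPM against 335 CPM. Over clusters 0 to 6 those sums ranged from 253 to 350 CPM for B cell genes and from 319 to 374 CPM for myeloid genes. The sum of 8 progenitor and mast cell genes, 59.6 CPM in cluster 7 against 74.3 CPM (-0.32 [-0.64 to -0.02]), lay below clusters 0 to 6, which had 61.7 to 86.8 CPM. The sum of 11 erythroid and megakaryocyte genes, 129 CPM against 116 CPM (0.15 [-0.07 to 0.36]), lay at the top of their range of 111 to 128 CPM, and 10 NK and ILC genes gave 875 CPM against 815 CPM (0.10 [0.02 to 0.18]), within the range of clusters 0 to 6 (793 to 932 CPM). None of the 12 B cell genes was without a count in cluster 7, while S100a8 and Elane among the myeloid genes, and Hbb-bs, Hbb-bt, Hba-a1, Pf4 and Ppbp among 11 erythroid and megakaryocyte genes, had 0 counts. Pax5, the B cell factor, had a count in 37.7% of cluster 7 cells and 43.4% of the other CD8 cells. The part of other cells in the results below was not tested.

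Of 19964 peaks with enough counts, 34 were called higher in cluster 7, a share of 0.17%, and 199 were called lower, a share of 0.997%. The median log2 ratio of all these peaks was 0.025. The interval lay wholly past 2-fold for 7 of the 34 higher peaks and for 5 of the 199 lower ones. The lower calls rest on few counts, with a median of 11 counts in cluster 7 and 238 counts in the other CD8 cells. The higher calls have medians of 54.5 and 208.5. Because the minimum is over both sets, a lower peak can pass it through the other CD8 cells alone. The 34 and 199 calls therefore do not weigh opening against closing, and the part of the minimum in their difference was not tested. Just inside the 2-fold line lay a peak of Rab3ip (39 counts in cluster 7 and 183 in the other CD8 cells) and just outside it one of Car5b (52 and 245 counts). Among the lower peaks these were one of Alox8 (12 and 226 counts) and one of Fam169b (11 and 207 counts). Few of these places were promoters: 1 of the 34 higher peaks and 15 of the 199 lower peaks touched a RefSeq promoter, against 40.5% of all peaks with enough counts. Put the other way, 0.0124% of 8093 promoter peaks were called higher and 0.185% lower, against 0.278% and 1.55% of 11871 peaks elsewhere. Called peaks were also shallower, with median counts of 262 (higher) and 246 (lower), against 500 for all peaks with enough counts. The part of depth in the promoter shares was not tested.

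**Figure D1:**
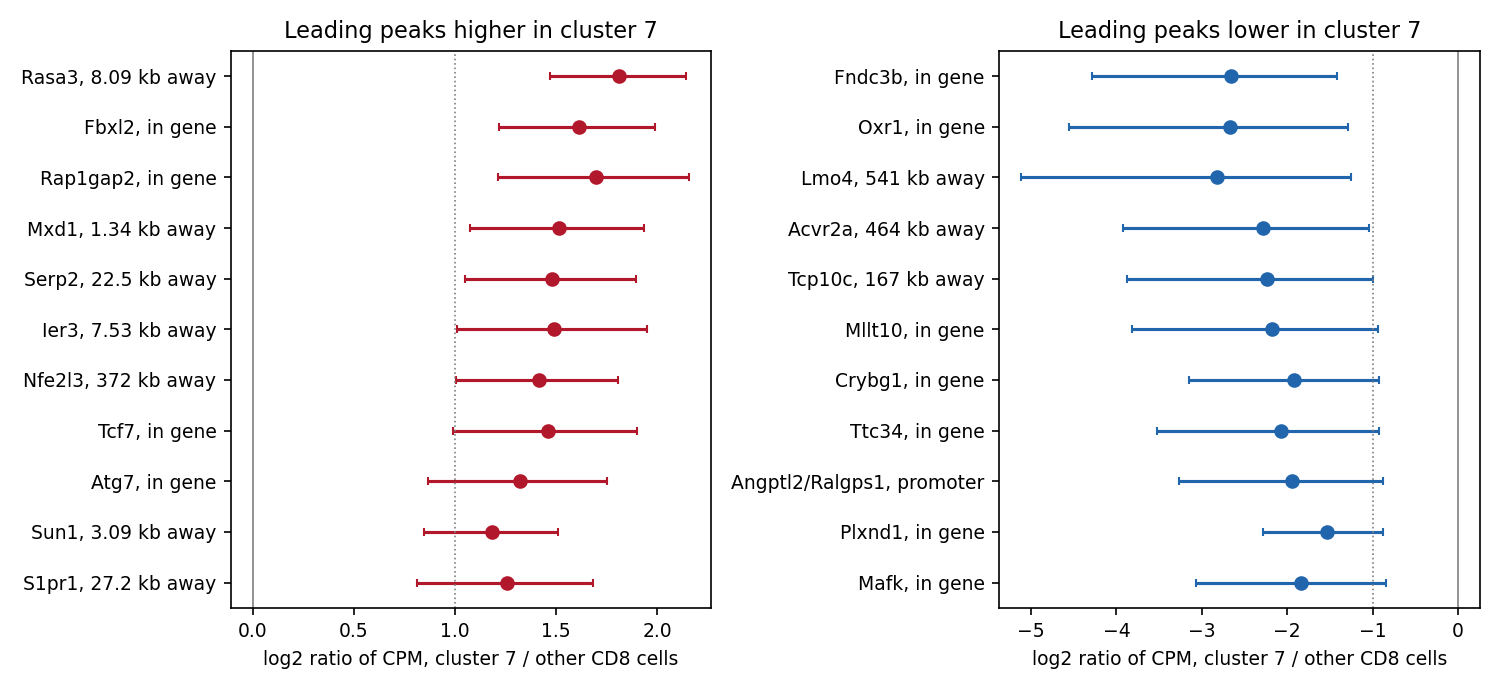
Log2 ratio of CPM in cluster 7 over the other CD8 cells for 11 of the 12 leading higher peaks (left) and 11 of the 12 leading lower peaks (right), ordered by the bound of the interval nearest 0; bars are exact 95% intervals for counting error, the dotted line is 2-fold, and each peak is named by the gene it lies in or nearest to. The Rasa3 peak leads at 1.81 and the intervals of the lower peaks are wider; the A1cf peak, with 0 counts in cluster 7, has no finite ratio and is not drawn.

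The most open place relative to the other CD8 cells was a peak 8.09 kb outside Rasa3 (chr8:13685678-13687353), the gene of a protein that switches off the small GTPases Ras and Rap1. It held 65.2 CPM (104 counts) in cluster 7, against 18.6 CPM (279 counts) in the other CD8 cells, a log2 ratio of 1.81 [1.47 to 2.14]. A count fell in it in 40.8% of cluster 7 cells (33.8 to 48.2) and in 13.6% of the other CD8 cells (12.01 to 15.4), and with every cell thinned to 2429 counts in 14.7% against 4.64%. Thinning left out 0 cells of cluster 7 and 186 shallower ones of the other CD8 cells. Across the other clusters this peak had 13.9, 16.8, 23.5, 15.0, 19.6, 22.6 and 50.2 CPM in clusters 0 to 6, and only cluster 6 came near cluster 7. Rasa3 had 11 peaks with enough counts within 50 kb of the gene, and the opening was not even among them: 8 ratios lay above 0, the peak over the start site had 0.17 [-0.14 to 0.46], and a second called peak lay 0.75 kb upstream of the start at 1.09 [0.54 to 1.60].

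A further regulator of Rap1 had the next pattern of this kind. Rap1gap2 encodes a protein that turns Rap1, the GTPase that activates integrins, to its off state. A peak 38.4 kb into the gene (chr11:74572061-74573027) had 32.6 CPM in cluster 7 against 10.1 CPM (1.70 [1.21 to 2.16]), and a second one at 55.3 kb (chr11:74554740-74556454) had 45.8 CPM against 20.6 CPM (1.15 [0.76 to 1.52]). Summed over the gene, Rap1gap2 had 210 CPM in cluster 7, against 117 CPM in the other CD8 cells and a range of 86.8 to 144 CPM over clusters 0 to 6 (0.84 [0.67 to 1.01]). Rasgrp2 encodes an exchange factor that turns Rap1 on. The peak at its upstream RefSeq start had 158 CPM against 107 CPM (0.56 [0.37 to 0.76]), under 2-fold. That at a RefSeq start further downstream had 31.3 CPM against 23.0 CPM (0.45 [-0.01 to 0.88]). Of 6 peaks with enough counts within 50 kb of Rasgrp2, 4 lay above 0, with a median of 0.11. Rasgrp2 and the genes whose peaks are followed one by one here (Rasa3, Rap1gap2, Klf2, Klf3, Fbxl2, Mxd1) were chosen after their values were seen.

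S1pr1, the gene of the receptor by which cells leave tissues, was more open in cluster 7. At S1pr1, a peak 27.2 kb from the gene (chr3:115682326-115683224) had 35.7 CPM against 14.9 CPM (1.26 [0.81 to 1.68]), and the locus itself had 58.3 CPM against 36.0 CPM (0.69 [0.36 to 1.01]). A count in the S1pr1 peak was found in 24.6% of cluster 7 cells (18.7 to 31.3) and 10.99% of the other CD8 cells (9.53 to 12.6). The S1pr1 locus was not called at 2-fold. Ccr7, the chemokine receptor for lymph node entry, had 53.9 CPM against 54.5 CPM (-0.02 [-0.35 to 0.31]).

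KLF2 is the transcription factor known to drive S1pr1, and KLF3 is a related factor of the same family that represses. All 6 peaks with enough counts within 50 kb of Klf2 had ratios above 0, against 54.1% of all peaks, from 0.40 [0.13 to 0.66] at the start site to 0.99 [0.51 to 1.44] at 46.4 kb downstream, and none reached 2-fold. Of these 6 peaks 4 lie in the neighbouring gene Eps15l1, which has 5 measured peaks. The start-site peak of Klf2 had 85.9 CPM in cluster 7 against 65.2 CPM. At Klf3 the 3 measured peaks had 0.86 [0.58 to 1.13] over the start site, 0.60 [0.07 to 1.10] at 9.16 kb and 1.10 [0.68 to 1.496] at 61.5 kb. The start-site peak of Klf3 had 81.5 CPM (130 counts) in cluster 7 against 44.8 CPM (673 counts) in the other CD8 cells. The Klf3 locus was at 135 CPM in cluster 7 against 75.5 CPM (0.84 [0.63 to 1.05]), while cluster 6 had 160 CPM.

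**Figure D2:**
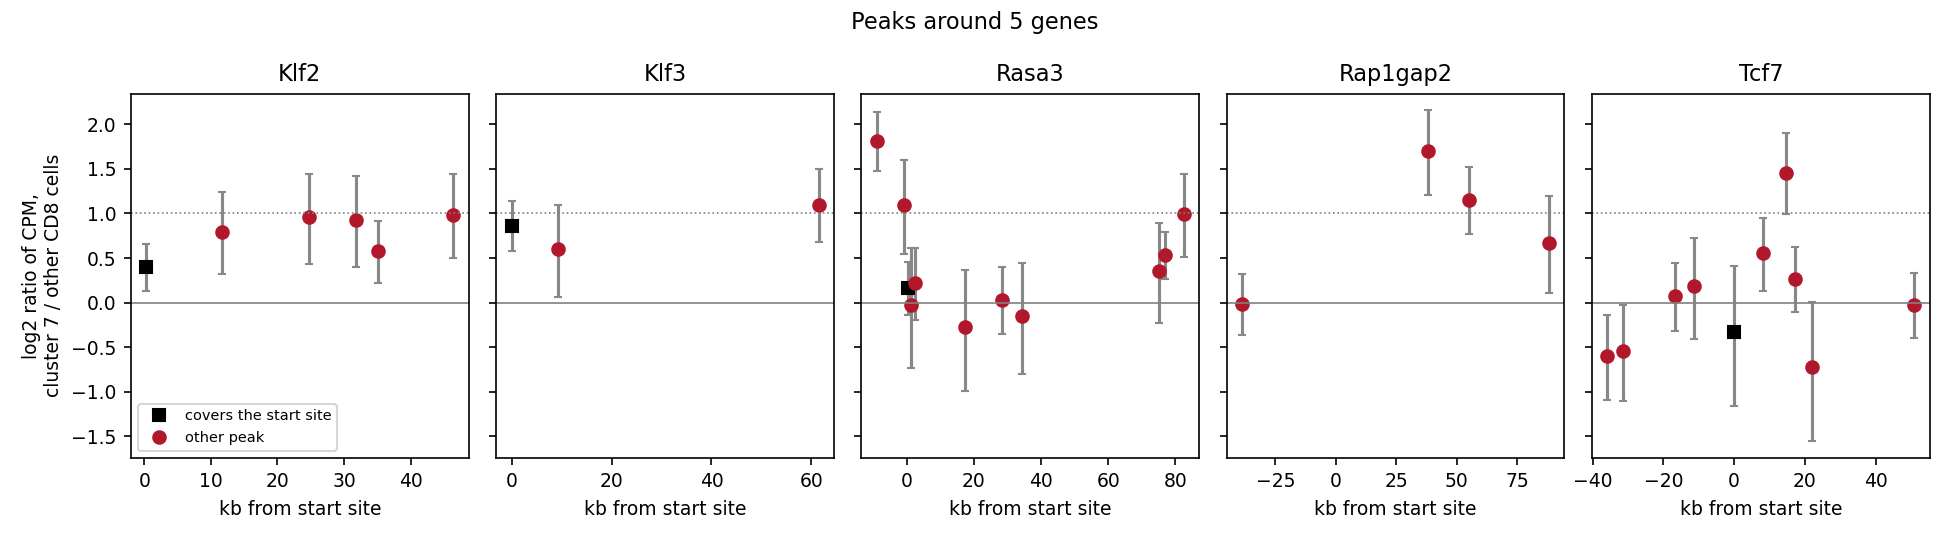
Log2 ratio of CPM in cluster 7 over the other CD8 cells (vertical axis, with exact 95% intervals) of each peak with at least 200 counts, by its distance in kb from the gene's start site (positive is downstream), for Klf2, Klf3, Rasa3, Rap1gap2 and Tcf7; squares cover the start site and the dotted line is 2-fold. All 6 peaks around Klf2 and all 3 around Klf3 lie above 0, while those of Tcf7 run from -0.73 to 1.46.

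The promoters below span the range of start-site ratios among Tcf7 and the genes named above as followed one by one. Klf3 had the highest ratio of these, with Klf2 and Fbxl2 between. Tcf7 is shown at 1 of its 2 RefSeq starts, and its start-site peak was not more open. Promoters with a peak called lower lie outside this range and are not shown. The sequences are those of RefSeq for the mouse build GRCm38.p6, 250 bases before to 50 after the start, 5′ to 3′ on the gene's strand. Capitals mark letters of any of 13 motifs searched on both strands. Those of 10 or more letters (IRF, MEF2 and the CTCF core) are given by name alone. AP-1 was searched as TGANTCA, a site of FOS and JUN dimers. TCF-1 and LEF1 were searched together as CTTTGA, the core that both proteins recognise. T-box factors such as EOMES were searched as GGTGTGA, and the RUNX family as TGTGGT. NFAT, which calcium signals activate, was searched as TGGAAA. E proteins and their relatives were searched as the E-box CAGCTG, and GATA factors as AGATAA. The remaining motifs were NR4A as AAAGGTCA, KLF as GGGTGTGG and ETS as CCGGAAGT.
Klf3, chr5:64803271-64803570, + strand: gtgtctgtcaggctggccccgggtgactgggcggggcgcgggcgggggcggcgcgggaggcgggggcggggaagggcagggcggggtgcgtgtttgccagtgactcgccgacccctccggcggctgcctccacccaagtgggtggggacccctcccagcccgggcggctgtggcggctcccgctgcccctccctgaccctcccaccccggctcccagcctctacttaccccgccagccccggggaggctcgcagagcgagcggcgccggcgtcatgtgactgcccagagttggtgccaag
Klf2, chr8:72318812-72319111, + strand: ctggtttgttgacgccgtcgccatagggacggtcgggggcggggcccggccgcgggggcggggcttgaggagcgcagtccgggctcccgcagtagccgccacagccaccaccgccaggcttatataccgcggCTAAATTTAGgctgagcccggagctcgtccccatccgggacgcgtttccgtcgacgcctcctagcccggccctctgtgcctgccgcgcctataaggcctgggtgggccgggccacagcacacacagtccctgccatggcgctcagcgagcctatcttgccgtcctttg
Fbxl2, chr9:114026702-114027001, - strand: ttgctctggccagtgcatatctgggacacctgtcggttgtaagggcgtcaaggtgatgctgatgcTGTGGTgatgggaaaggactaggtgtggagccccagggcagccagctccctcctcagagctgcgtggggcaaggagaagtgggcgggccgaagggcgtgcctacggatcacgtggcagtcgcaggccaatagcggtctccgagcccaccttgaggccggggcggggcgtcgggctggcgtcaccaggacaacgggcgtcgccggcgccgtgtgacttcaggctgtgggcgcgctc
Tcf7, chr11:52282546-52282845, - strand: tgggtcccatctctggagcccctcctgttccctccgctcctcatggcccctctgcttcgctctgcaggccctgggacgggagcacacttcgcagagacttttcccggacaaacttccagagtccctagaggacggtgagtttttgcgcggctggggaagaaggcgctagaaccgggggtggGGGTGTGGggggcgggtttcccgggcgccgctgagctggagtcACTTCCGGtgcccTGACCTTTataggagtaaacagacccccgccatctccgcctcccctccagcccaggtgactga

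None of the 13 motifs occurs in the Klf3 window, MEF2 occurs at position 133 of the Klf2 window, counted from its first base, and RUNX at position 66 of the Fbxl2 window. The Tcf7 window holds KLF at 182, ETS at 225 and the NR4A motif at 238. Among all 17492 promoters in the table, KLF was found in 3.63%, ETS in 5.29%, RUNX in 15.1%, MEF2 in 3.48% and the NR4A motif in 1.23%. A match is a description of letters, not a site of binding.

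Tcf7, the gene of TCF-1, was open at another place than its start. A peak 14.5 kb into the gene (chr11:52268141-52268818) had 33.9 CPM (54 counts) in cluster 7 and 12.3 CPM (185 counts) in the other CD8 cells (1.46 [0.99 to 1.90]), the highest of the 8 clusters, with 21.1 CPM in cluster 6. The start-site peak of Tcf7 had 10.0 CPM (16 counts) in cluster 7 against 12.6 CPM (189 counts), a ratio of -0.33 [-1.16 to 0.41], and was at 43.6 CPM in cluster 6. Upstream, peaks at 31.3 and 35.8 kb had ratios of -0.54 [-1.10 to -0.03] and -0.60 [-1.09 to -0.14]. Of 10 peaks around Tcf7, 5 lay above 0, and the locus sum was 160 CPM against 126 CPM (0.35 [0.16 to 0.54]). With peaks near the gene ends only, the ratio of the locus was -0.07.

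Bach2, whose product restrains effector genes, had 542 CPM in cluster 7 against 432 CPM in the other CD8 cells (0.33 [0.22 to 0.43]), with 1 of its 9 measured peaks called (chr4:32343237-32344568, 28.2 against 13.3 CPM, 1.09 [0.59 to 1.56]). Lef1, a relative of TCF-1, had 278 CPM against 226 CPM (0.30 [0.15 to 0.44]). Il7r, the receptor of the survival cytokine IL-7, did not reach the count minimum, with 12 counts in cluster 7 and 185 in the other CD8 cells. Its ratio on these few counts was -0.71, and -1.07 to -0.27 over the alternatives run. A count fell in the Il7r locus in 6.28% of cluster 7 cells (3.29 to 10.7) and 9.44% of the other CD8 cells (8.08 to 10.9).

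In Fbxl2, which encodes a subunit of a ubiquitin ligase, a peak 10.5 kb into the gene (chr9:114015647-114016925) had 47.6 CPM in cluster 7 and 15.6 CPM in the other CD8 cells (1.61 [1.22 to 1.99]). Unlike the Rasa3 and Tcf7 peaks, it was at its lowest in cluster 6, with 7.93 CPM, and the other clusters reached at most 21.6 CPM. A peak 1.34 kb past Mxd1, the gene of a MYC antagonist, had 38.2 CPM against 13.4 CPM (1.51 [1.08 to 1.93]). Peaks 7.53 kb from Ier3, an immediate early gene, and in Atg7, an autophagy gene, had 1.49 [1.01 to 1.95] and 1.32 [0.87 to 1.75]. The other leading peaks lay near Serp2 (1.48), Nfe2l3 (1.41, at a distance of 372 kb) and Sun1 (1.18), a gene of the nuclear envelope. The remaining 22 of the 34 had ratios of at most 1.26 and included a peak in the adhesion receptor gene Cd2 (1.22 [0.75 to 1.66]), one 13.8 kb from the cytokine signalling inhibitor Socs1 (1.15 [0.61 to 1.66]), and one 152 kb from Klf3 (1.26 [0.75 to 1.74]). These were picked from the called peaks after their values were seen.

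**Figure D3:**
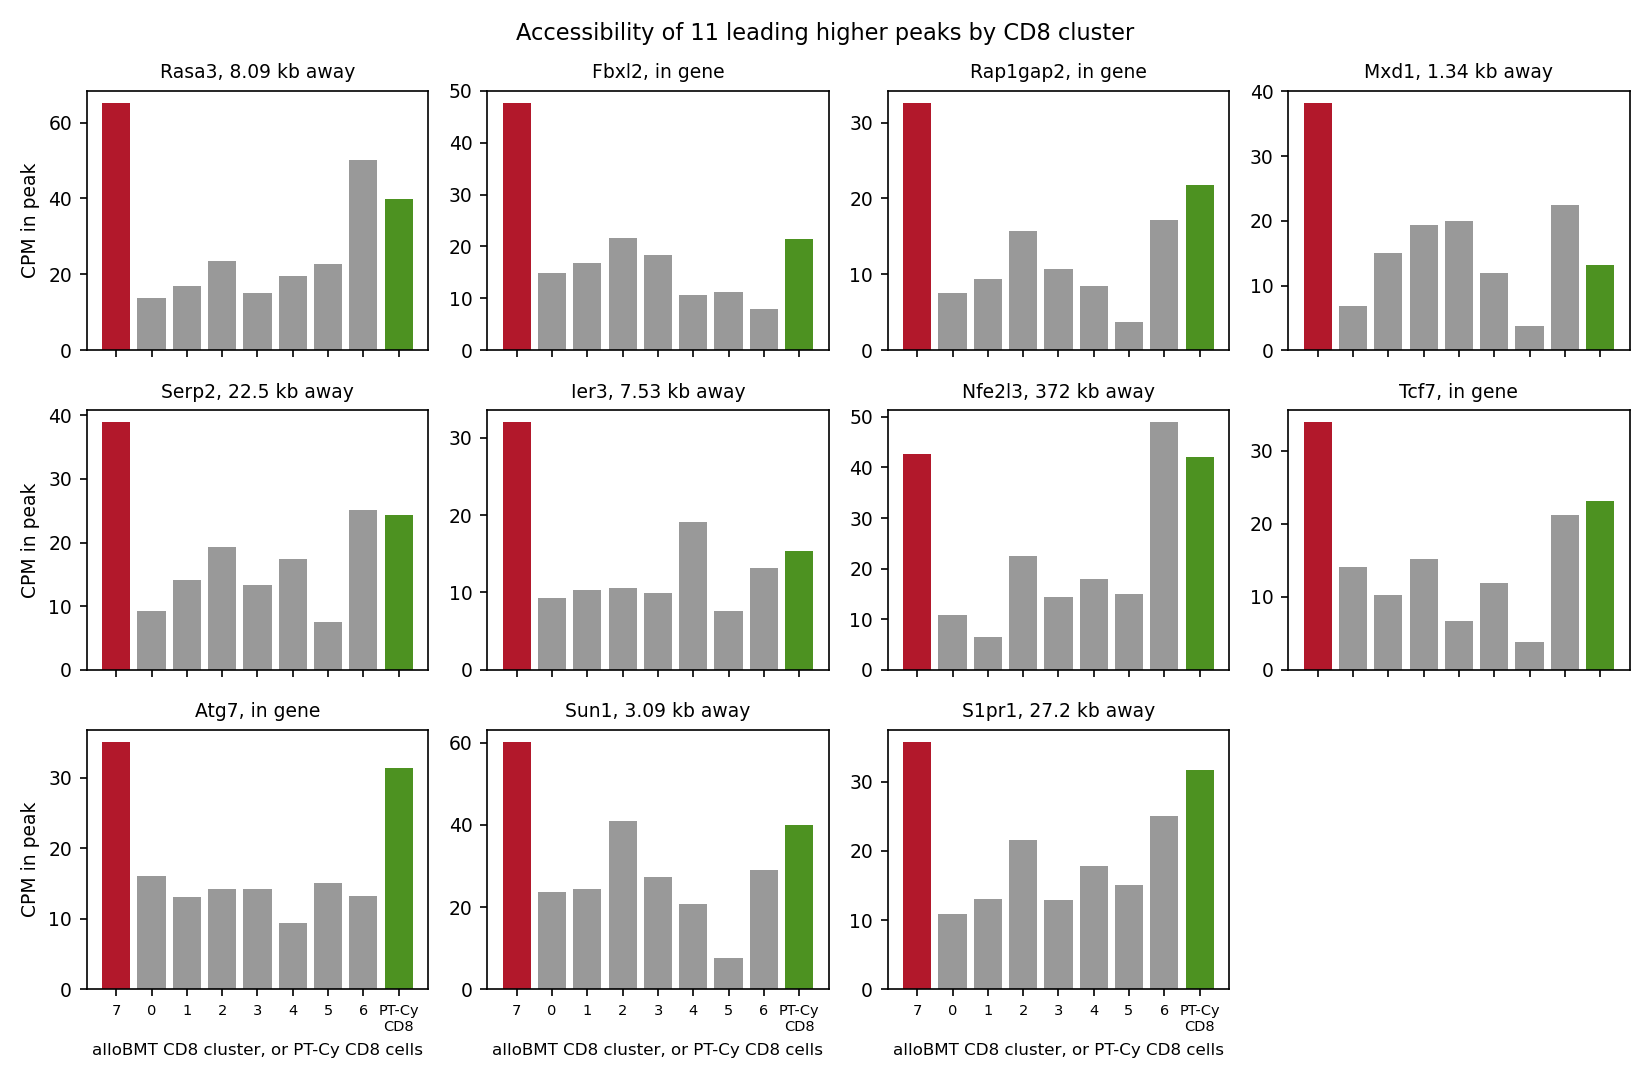
CPM of 11 of the 12 leading higher peaks (bars, from 0, 1 panel per peak) in cluster 7 (red), clusters 0 to 6 of the alloBMT library (grey) and all CD8 cells of the PT-Cy library (green). Cluster 7 is highest of the 8 clusters in 10 of the 11 panels; at the peak near Nfe2l3 cluster 6 has 48.9 CPM against 42.6 CPM in cluster 7.

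Cluster 7 ranked highest of the 8 clusters at 30 of the 34 higher peaks and second at 4, values that the choice of the peaks favours. The 34 peaks together held 1261 CPM in cluster 7, 807 CPM in cluster 6 and 478 to 636 CPM in clusters 0 to 5. Counts were spread over the cells: the median cell of cluster 7 had a count in 8 of the 34 peaks (quartiles 5 and 10), against 3 (1 and 6) in the other CD8 cells, and 0 of the 191 cells had a count in none, against 205 of the 1674. At equal depth the medians were 3 in cluster 7 and 1 in the other CD8 cells, and 7.85% of cluster 7 cells and 33.3% of the other CD8 cells had none.

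Counts of the PT-Cy library were not used to choose these peaks, but a comparison of it with the other alloBMT CD8 cells shares those cells with the comparison above, so levels are given side by side only. The 34 peaks held 1261 CPM in cluster 7, 855 CPM in all PT-Cy CD8 cells and 536 CPM in the other alloBMT CD8 cells. Within PT-Cy, clusters 2, 5 and 6, those with at least 50 cells, held 878, 788 and 931 CPM. The Rasa3 peak had 39.8 CPM in PT-Cy CD8 cells, the S1pr1 peak 31.8 CPM and the Atg7 peak 31.4 CPM, each between the levels of cluster 7 and of the other alloBMT CD8 cells. The Mxd1 peak, at 13.2 CPM in PT-Cy CD8 cells, was not above the 13.4 CPM of the other alloBMT CD8 cells. The 1 PT-Cy cell placed in cluster 7 had 3797 counts in peaks and a count in 4 of the 34 higher and 6 of the 199 lower peaks.

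Among the places less open in cluster 7, the peak with the lowest bound lay in A1cf (chr19:31910003-31910959), which encodes an RNA-binding cofactor of mRNA editing, and had 0 counts in cluster 7 against 224 counts, or 14.9 CPM, in the other CD8 cells. The exact interval of its log2 ratio ended at -2.68, and clusters 0 to 6 had 7.93 to 21.6 CPM. A peak in Fndc3b (chr3:27606130-27608141) had 3.13 CPM in cluster 7 against 19.7 CPM (-2.65 [-4.29 to -1.41]), and one in Oxr1 (chr15:41846107-41847120), a gene of resistance to oxidative damage, had 2.51 CPM against 15.9 CPM (-2.67 [-4.55 to -1.29]). Peaks in Mllt10, Crybg1, Ttc34 and Mafk had ratios of -2.18, -1.93, -2.07 and -1.84, and the best counted of the 12, in the semaphorin receptor gene Plxnd1, had 11.9 CPM against 34.5 CPM (-1.53 [-2.28 to -0.88]). The promoter peak shared by Angptl2 and Ralgps1 had 4.39 CPM against 16.9 CPM (-1.94 [-3.27 to -0.88]). The others, 541 kb from Lmo4, 464 kb from Acvr2a and 167 kb from Tcp10c, lay outside the protein-coding genes of the table.

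At equal depth the median cell of cluster 7 had a count in 3 of the 199 lower peaks (quartiles 2 and 4), against 8 (6 and 10) in the other CD8 cells. Together these peaks held 1444 CPM in cluster 7, 2406 CPM in PT-Cy CD8 cells, 2599 CPM in alloBMT cluster 6 and 3477 CPM in all other alloBMT CD8 cells. Cluster 7 was lowest of the 8 clusters at 125 of the 199. The choice of the peaks favours this rank and the lower counts of cluster 7 in them. The 15 lower peaks that touched a promoter included, as examples, those of Bmf, a gene that promotes apoptosis (-1.503 [-2.47 to -0.68]), Smad1 (-1.28 [-2.30 to -0.42]) and Cd244a, a receptor of killer cells (-1.08 [-1.91 to -0.36]).

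Summed over whole genes, differences were smaller. Of 13118 gene loci with enough counts, 3 were called higher (0.0229%) and 47 lower (0.358%), and the median log2 ratio was 0.0072. The part of the count minimum in the difference between 3 and 47 was not tested either. By the bound of the interval the leading higher loci included Rap1gap2, Cntfr, Klf3, Fbxl2, Cmklr1, Gna15, Itga2, Crmp1 and Eps15l1, with ratios from 0.60 to 1.14. Cntfr, a cytokine receptor subunit gene, was the only one of them called, with 28.8 CPM against 13.1 CPM (1.14 [0.64 to 1.61]), and with peaks within 10 kb of the gene its ratio was 0.67. Gna15, which encodes a G protein subunit of blood cells, had 191 CPM against 120 CPM (0.67 [0.49 to 0.85]), and Cmklr1, a chemoattractant receptor gene, had 177 CPM against 110 CPM (0.69 [0.50 to 0.87]). Itga2, the integrin alpha 2 gene, had 142 CPM against 88.6 CPM (0.68 [0.47 to 0.89]). The leading lower loci were A1cf, Carmil1, Mylk, Cdcp2, Tle1, Mrc2, Shroom3, Cplx1, Fam228a and Angptl2, with ratios from -2.87 to -1.29. Of these, A1cf, Tle1, Mrc2 and Angptl2 each had 1 peak with enough counts, and those of A1cf and Angptl2 are leading lower peaks already described. No single peak of Cntfr, Carmil1, Mylk, Cdcp2, Shroom3, Cplx1 or Fam228a reached 200 counts. With peaks near the gene ends only, ratios were 0.18 at Gna15, 0.05 at Eps15l1, 0.37 at Itga2, -0.47 at Carmil1 and -0.81 at Cplx1, and without cluster 3 that of Mrc2 was -0.96. Mylk, the myosin light chain kinase gene, had 12.5 CPM against 33.8 CPM (-1.43 [-2.15 to -0.79]), and Tle1, a corepressor gene, had 6.90 CPM against 21.0 CPM (-1.61 [-2.62 to -0.75]).

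Among gene lists for T cell states, the list of stem-like, memory and naive genes had the highest median ratio. A locus was counted in a list at 1.5-fold, which 0.564% of all 13118 loci passed upwards and 2.54% downwards. Of 20 measured genes of 23 listed, 2 passed it upwards, S1pr1 among them. Downwards 1 passed it (Xcl1, a chemokine gene, at -0.61 [-1.36 to 0.07]). Of the 20 genes 14 lay above 0, against 51.5% of all loci. The median ratio was 0.27 against 0.0072 over all loci, and 0.128 to 0.305 over the alternatives run. Against cluster 6 alone, with 11 of the genes measured, the median was -0.135, with 0 past 1.5-fold upwards and 1 downwards. Against each other cluster alone the median lay above 0, from 0.15 (cluster 2) to 0.41 (cluster 3). The list held 2640 CPM in cluster 7 against 2271 CPM in the other CD8 cells, within the range of 2173 to 3246 CPM over clusters 0 to 6. S1pr1 was inside the 1.5-fold line at 0.37 with every cell thinned, and Xcl1 at -0.35 without cluster 0. Klf2 (0.43 [0.18 to 0.67]), Cxcr5 (0.40 [0.16 to 0.64]) and Bcl2, the survival factor gene (0.28 [0.14 to 0.41]), were above 0 without passing 1.5-fold. Eya2 (-0.35 [-0.65 to -0.07]) lay below 0.

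Exhaustion genes differed little. All 24 were measured, 0 passed 1.5-fold in either direction, and the median ratio was 0.0045. Tox had 476 CPM in cluster 7 and 474 CPM in the other CD8 cells (0.01 [-0.10 to 0.12]), and Pdcd1 had 206 CPM against 209 CPM (-0.02 [-0.19 to 0.14]). Havcr2, the gene of the inhibitory receptor TIM-3, had 0.04 [-0.20 to 0.28], Lag3 had 0.11 [-0.17 to 0.38] and Entpd1 had 0.00 [-0.13 to 0.12]. Eomes, a T-box factor gene counted in this list, had 0.29 [0.09 to 0.49]. Tigit, an inhibitory receptor gene, lay below 0 without passing 1.5-fold, at 99.7 CPM against 124 CPM (-0.32 [-0.56 to -0.08]).

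Effector and cytotoxic genes had a median ratio of 0.15 over 23 measured genes, and 0 passed 1.5-fold. The chemokine gene Ccl5 was at 70.2 CPM in cluster 7 against 49.9 CPM (0.49 [0.19 to 0.78]), above clusters 0 to 6, which ranged from 37.7 to 57.1 CPM. The only Ccl5 peak with at least 200 counts had a ratio of 0.35 [-0.04 to 0.73]. The granzyme genes Gzma, Gzmb and Gzmk had ratios of -0.10 [-0.58 to 0.34], 0.06 [-0.27 to 0.37] and -0.04 [-0.32 to 0.22]. Tbx21, the gene of the T-box factor T-bet, had -0.08 [-0.28 to 0.12]. Of 19 homing and residency genes, 2 passed 1.5-fold upwards, S1pr1 again among them, and the median was 0.11.

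Genes of cell division were not shifted, with a median of 0.0025 over 22 genes and 1 past 1.5-fold downwards, Tyms, the thymidylate synthase gene (25.7 CPM in cluster 7 against 38.6 CPM, -0.59 [-1.08 to -0.13]). With each cell counted once per peak the ratio of Tyms was -0.41. Mki67, a marker of dividing cells, had -0.23 [-0.56 to 0.08]. Among 11 killer lectin-like and innate-like receptor genes the median was -0.041, and 1 gene passed 1.5-fold upwards, Fcgr3, an Fc receptor gene (0.72 [0.25 to 1.17]). With peaks near the gene ends only, the ratio of Fcgr3 was -0.24. Genes of apoptosis had a median of 0.15 over 14 genes, and those of p53 and DNA damage -0.11 over 11, with 0 past 1.5-fold in both. Lists for activation and AP-1 (21 measured, median -0.00067), interferon response (17, 0.018), costimulation and cytokine receptors (18, 0.015), regulators of T cell receptor signalling (18, 0.048), and E proteins with Id and Zeb factors (13, 0.0048) also had 0 past 1.5-fold. The same was so for CD4 helper (6, 0.063), regulatory T cell (10, 0.032), B cell (5, -0.12), plasma cell (4, 0.086), myeloid (9, -0.085), NK and ILC (6, 0.13), gamma-delta and NKT (5, 0.020), erythroid and megakaryocyte (3, 0.40) and progenitor and mast cell genes (2, -0.13). Of 6 dendritic cell genes 1 passed upwards, Itgax (0.63 [0.06 to 1.16]), with a median of 0.16, and with peaks within 10 kb of the gene its ratio was 0.48.

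**Figure D4:**
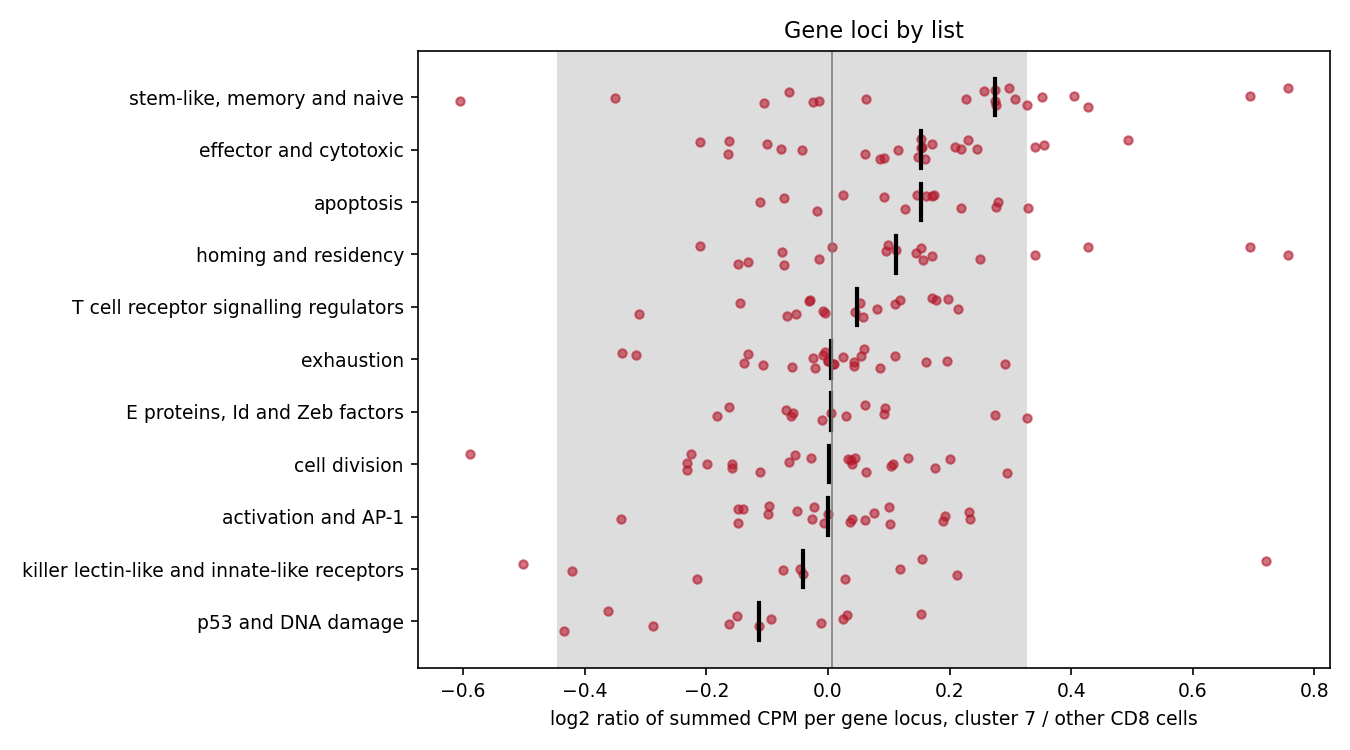
Log2 ratio of cluster 7 over the other CD8 cells for each measured gene locus (points) of 11 lists, with the list's median (black bar); the grey line is the median of all 13118 loci and the grey band their 5th to 95th percentile. The stem-like, memory and naive list has the highest median drawn, 0.27.

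The authors deposited module scores per cell, 2 for a stem-like state and 2 for exhausted T cells (Tex), each from RNA and from accessibility (Acc); the genes behind them are not known here. The stem-like accessibility score averaged 0.0535 ± 0.106 in cluster 7 and 0.0256 ± 0.108 in the other CD8 cells (SD over 191 and 1674 cells), a difference of 0.0279, or 0.259 of the SD of all alloBMT CD8 cells. The stem-like RNA score averaged 0.00820 ± 0.0800 in cluster 7 against -0.00570 ± 0.0889, a difference of 0.0139. The Tex RNA score averaged 0.0135 ± 0.0214 in cluster 7 against 0.0277 ± 0.0283, a difference of -0.0142 or -0.508 SD, and 23.0% of cluster 7 cells lay above the median of the other CD8 cells. The Tex accessibility score averaged 0.0477 ± 0.0340 in cluster 7 against 0.0568 ± 0.0393, a difference of -0.00902. With the other clusters weighted equally the differences were 0.0168 for the stem-like accessibility score, -0.00258 for the stem-like RNA score, -0.00518 for the Tex RNA score and -0.000108 for the Tex accessibility score. Every one of these differences is smaller than the SD between cells. Cluster 6 stood further out on both kinds of score, with a mean stem-like accessibility score of 0.118 and a mean Tex RNA score of -0.00855. On each score some other cluster had a mean near that of cluster 7. Stem-like scores averaged 0.00993 in cluster 0 (RNA) and 0.0521 in cluster 5 (accessibility). Tex scores averaged 0.0127 in cluster 2 (RNA) and 0.0479 in cluster 4 (accessibility).

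**Figure D5:**
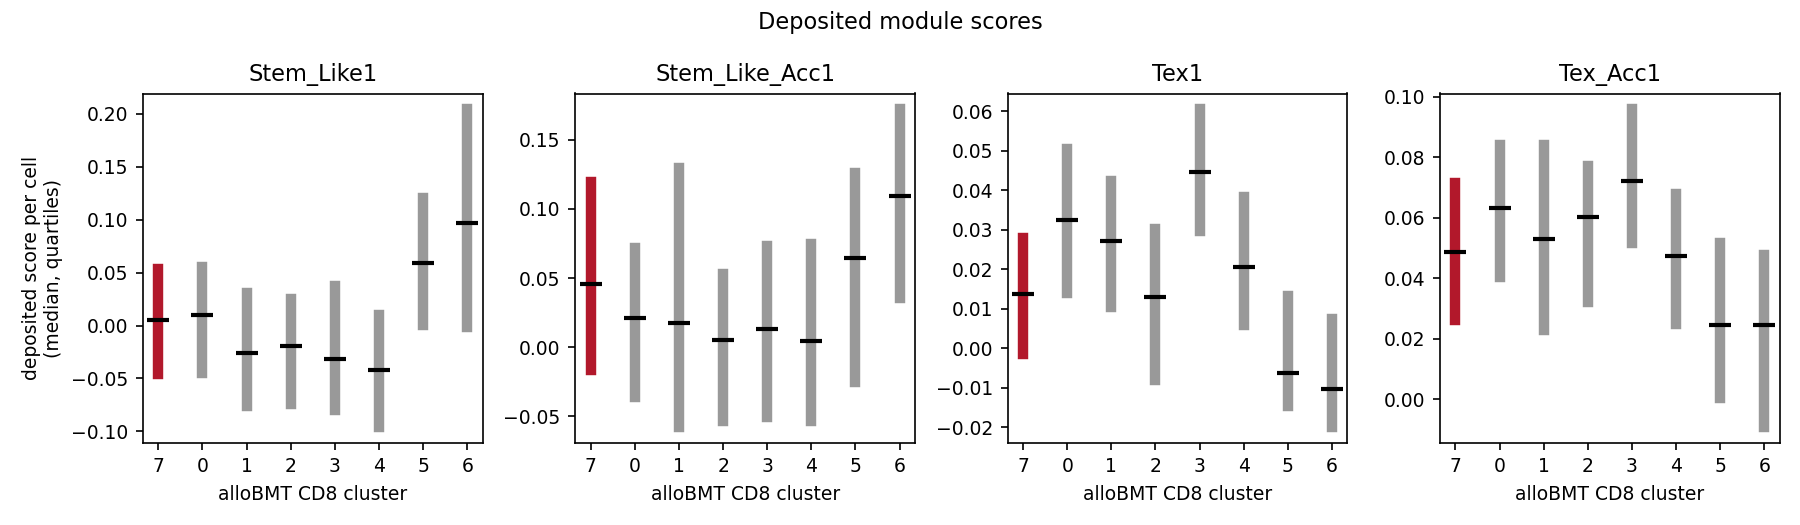
Deposited module scores per cell in cluster 7 (red) and clusters 0 to 6 (grey) of the alloBMT library; bars span the quartiles over cells and black marks are medians. Cluster 7 has a median stem-like accessibility score of 0.0457, above clusters 0 to 4 and below clusters 5 and 6.

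By correlation of log2(CPM + 1) over the 19964 peaks, cluster 7 was nearest to clusters 0 and 2 (Pearson r of 0.925 each) and cluster 4 (0.916), and farthest from cluster 5 (0.747). The order follows depth in part, since cluster 5 has 265055 counts and cluster 0 has 5395924, and points share their library. Against cluster 0 alone, 6 of 10554 peaks with at least 200 counts were called higher (0.0569%) and 23 lower (0.218%). Against cluster 3, 3 of 6014 peaks were called higher (0.0499%) and 4 lower (0.0665%). Against cluster 2 and cluster 4 the calls were 0 in each direction, among 4493 and 4807 peaks, and likewise against cluster 1 (1769 peaks) and cluster 6 (1066 peaks). Here the 200 counts had to be reached over the 2 clusters compared. Even the Rasa3 peak, with 104 counts in cluster 7, fell short of that against every one of clusters 0 to 6. Calls of 0 against clusters 1, 2, 4 and 6 therefore cannot show likeness. The calls against clusters 0, 3 and 5 also leave out that peak. Against cluster 5, the smallest cluster, 2 of 357 peaks were called higher (0.56%) and 0 lower. At single loci, S1pr1 had 58.3 CPM in cluster 7, 30.9 CPM in cluster 0, 41.9 CPM in cluster 2 and 33.2 CPM in cluster 4, and Klf3 had 135 CPM in cluster 7 against 68.0, 83.4 and 87.3 CPM in those clusters. Cluster 6, chosen for comparison after its values were seen, had 75.3 CPM at S1pr1, so that the ratio of cluster 7 over cluster 6 was -0.37 [-0.86 to 0.13]. At Tcf7 that ratio was -0.48 [-0.76 to -0.19] and at Rap1gap2 it was 0.54 [0.23 to 0.87].

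Only 1 promoter had a peak called higher at 2-fold and 15 had one called lower, so promoter motifs were also counted at 1.5-fold, a choice made after the data were seen. The ETS motif was found in 5 of 66 such promoters higher in cluster 7 (7.58%) and in 1 of 106 lower ones (0.943%), against 9.90% of 8693 promoters with a measured peak. The NR4A motif was found in 0 of 66 higher and 5 of 106 lower promoters (4.72%), against 0.736%. TCF/LEF letters were in 7.58% of the higher and 12.3% of the lower promoters, against 11.1%, and KLF letters in 1.52% and 2.83%, against 3.82%. The 13 motifs were not tested.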

How the data were processed

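Accessible chromatin of the CD8 cells of 2 Multiome libraries (alloBMT, PT-Cy) was analysed. Cell Ranger ARC 1.0.1 and MACS2 are named in the submitters' processing notes, without their settings. The authors deposited whole-number ATAC counts per peak and cell for 148283 peaks, not normalized, per the file headers and the values. Their per-cell table gives clusters, the fraction of fragments in peaks (printed as a percent), the mitochondrial percent, the TSS enrichment ratio and module scores, as deposited; 37 of its columns were not used. The notes name a human genome build, while 64.9% of 21263 RefSeq promoters of mouse GRCm38.p6 lay in a peak, against 8.24% to 9.38% when shifted by 2000 to 200000 bases. Positions of peaks are as deposited.

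Counts were summed per cluster, scaled to CPM and compared as log2 ratios with exact conditional binomial (Clopper-Pearson) intervals. A gene locus is the sum of peaks overlapping a protein-coding gene or within 2 kb of it. Named features are the 12 peaks and 10 loci leading each direction by interval bound, up to 4 members per list, and a fixed set of T cell genes; the 1.5-fold limit was for lists. Members and the 24 lists were chosen with earlier results of these data known. The computation was tested on simulated counts. No doublet caller was run; results were recomputed without the 5% deepest cells. Peak sequences could not be searched for motifs without a genome, so promoters were used. Other alternatives were edgeR 4.0.16 TMM and DESeq2 1.42.0 size factors, count minimums of 100 and 500, binary counts, per-cell means, thinning, and other comparison cells and windows. Python 3.11.15 and R 4.3.3 were used. Values of 1 gene are not reported here.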

Additional observations from a re-analysis of the deposited data

How the results depend on the processing

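The counts of calls depend on the count minimum. With a minimum of 100 in place of 200, 178 peaks were called higher and 1222 lower, and 9 gene loci higher and 165 lower; with 500, the numbers were 1, 7, 0 and 6. With the mean of per-cell CPM they were 57, 312, 6 and 97, and with every cell thinned, which leaves fewer counts per peak at an unchanged choice of peaks, 251, 1039, 30 and 320. Gene loci called higher numbered 5 with the other clusters weighted equally and 5 without cluster 6. Gene loci called lower numbered 79 without the 5% of cells with the most counts and 30 with peaks near the gene ends only. The stem-like RNA score difference turned to -0.00258 with clusters weighted equally. The cause was not tested for any of these. The 12 leading higher peaks kept ratios of at least 1.04, and the 11 leading lower ones with a finite ratio stayed at or below -1.13, under each alternative run. The 24 list medians moved by less than the typical counting error of a member under each alternative, though medians near 0 could change sign. TMM scaling moved the median of all peaks to -0.052. No paired analysis was possible because there is 1 library per group. Depth limits the lower peaks most, with a median of 11 counts in cluster 7.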
